A study of Homo sapiens with 6 samples.

Results

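Cytosolic ribosomal protein genes encode the protein subunits of the ribosome that translates messenger RNA outside the mitochondria. The set described here holds 55 such genes of the 25969 genes measured. They are the rows whose Ensembl identifier maps in GENCODE to a listed protein-coding ribosomal protein symbol, with pseudogenes left out: 33 genes of the large subunit (RPL) and 22 of the small subunit (RPS). A further 25 cytosolic ribosomal protein genes that are not in the set were measured and are used only for comparison.

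Gene expression was measured by RNA sequencing of total RNA from cells labelled LNCaP, a human prostate cancer line. In 3 libraries the cells carried an overexpression vector for VIM-AS1, which is a long noncoding RNA read from the strand opposite the vimentin gene, and their genotype is labelled as VIM-AS1 overexpressed. In the other 3 libraries the cells had received the pcDNA3.1 vector and their genotype is labelled WT. All 6 libraries thus carry a transfected plasmid, and the labels give neither the time after transfection nor the number of cultures behind a group. The p-values therefore measure only how much these libraries vary, and that variation may be technical. The values are gene counts divided by 1 scaling factor per library, called normalized reads below. The recovered reads numbered 14762893 to 19889745 per library.

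VIM-AS1 itself (chr10:17214239-17229985, minus strand) stood at 2197, 2019 and 2763 normalized reads with the overexpression vector and at 8.63, 1.22 and 5.53 with the control vector, which matches the labels. Of the markers of LNCaP and prostate luminal cells, KRT8 (51008 to 99727 normalized reads), KRT18 (16343 to 38127) and HOXB13 (401 to 807) were high. KLK3, the gene of prostate-specific antigen and a defining LNCaP transcript, was listed at 0 in 5 libraries and at 1.92 normalized reads in control library 1. FOLH1 was listed at 0 in 4 libraries and reached 3.84. These absent markers go against the label, so the cells are called by their label only. The summed level of 8 markers of other cell types was 1036 to 1521 normalized reads in the overexpression libraries and 1703 to 1932 in the control libraries; most of it was COL1A1, while COL1A2, PECAM1 and CHGA were at 0 in at least 3 libraries each. Whether cells of other types were present, and any part of them in the results below, was not tested.

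Ribosomal proteins are made in near-equal amounts and assembled with ribosomal RNA in the nucleolus. Their messenger RNAs are among the most abundant of a growing cell and start with a 5′ terminal oligopyrimidine (TOP) tract, a C followed by a run of C and T, through which LARP1 and the kinase mTOR control their translation. Because translation is set through that tract, the amount of these messenger RNAs can stay steady while the output of protein changes. Several of them, among them RPLP0, RPL13A and RPS18, are widely used as reference genes in quantitative PCR, which makes their behaviour under different library scalings of practical interest.

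The 5′ ends show what these genes share. RefSeq promoters (build GRCh38.p14) were at hand for 46 of the 55 members. In 35 of the 46 members (76.1%) at least 1 annotated start was a C followed by at least 4 pyrimidines, against 5.14% of the 27305 genes in the same table. The runs of those 35 members were 6 to 16 bases long, with a median of 8. The stretches below run from 20 bases before the start to 25 bases from it, and the capitals mark the pyrimidine run at the start. The first 4 are the member past the test's threshold and members with large differences, RPL26 is the most variable member, RPL7A holds the longest run, RPLP0, RPL13A and RPS18 are reference genes, and RPL3 and RPS28 have no run of that length at their annotated start.
RPS23: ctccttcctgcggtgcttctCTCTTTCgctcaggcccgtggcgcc
RPL38: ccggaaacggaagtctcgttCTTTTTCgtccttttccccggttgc
RPLP2: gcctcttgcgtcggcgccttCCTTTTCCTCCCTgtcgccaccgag
RPS27A: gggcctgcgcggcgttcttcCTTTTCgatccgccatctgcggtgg
RPL26: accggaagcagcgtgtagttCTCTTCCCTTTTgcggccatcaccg
RPL7A: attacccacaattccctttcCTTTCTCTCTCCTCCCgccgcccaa
RPLP0: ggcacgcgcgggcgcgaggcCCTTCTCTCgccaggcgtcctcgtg
RPL13A: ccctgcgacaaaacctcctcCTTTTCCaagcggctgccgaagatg
RPS18: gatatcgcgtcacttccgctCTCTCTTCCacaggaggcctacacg
RPL3: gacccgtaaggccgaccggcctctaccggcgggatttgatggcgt
RPS28: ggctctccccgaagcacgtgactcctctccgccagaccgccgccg

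On GRCh38.p14 these stretches lie at chr5:82278330-82278374 (minus strand) for RPS23, chr17:74203658-74203702 (plus) for RPL38 and chr11:809947-809991 (plus) for RPLP2. They lie at chr2:55232668-55232712 (plus) for RPS27A, chr17:8383169-8383213 (minus) for RPL26 and chr9:133348198-133348242 (plus) for RPL7A. The reference genes' stretches are chr12:120201087-120201131 (minus) for RPLP0, chr19:49487588-49487632 (plus) for RPL13A and chr6:33272055-33272099 (plus) for RPS18. Those of RPL3 and RPS28 are chr22:39319599-39319643 (minus) and chr19:8321476-8321520 (plus). In the 300-base promoters the letters CCGGAA, on either strand, were found in 55.9% of 59 member promoters and in 17.2% of 35116 promoters of the table. GGGCGG, on either strand, was in 55.9% and 45.0%, and AAGATGG, on either strand, in 10.2% and 5.84%. The reverse complement of the first motif, TTCCGG, can share bases with a pyrimidine run at the start. The 35 members with a run had a median log2 fold change (overexpression minus control) of -0.05 and the 11 without one had -0.09, both near 0.

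The members were abundant in every library. Their mean over the 6 libraries ranged from 868 (RPL26) to 138867 normalized reads (RPS2), and their summed reads numbered 1262309 to 1964976 per library. Per kilobase of coding sequence, in the control libraries, RPS2 was highest at 159029 ± 50707 normalized reads (SD, n = 3), followed by RPLP1 at 142112 ± 35813, RPL13 at 139910 ± 35323, RPL35 at 116610 ± 44466 and RPL7A at 115103 ± 26082. The ranges of mean ± SD of these 5 members overlapped. Control library 3 was the lowest control library for each of them, so the SDs hold a difference between libraries that they share. These SDs therefore do not measure how certain the order is. The lowest were RPL26 at 1713 ± 1809 normalized reads per kilobase, RPL22 at 6790 ± 3053, RPL7 at 12998 ± 2613, RPL30 at 14758 ± 5563, RPS3A at 15293 ± 1586 and RPS15A at 15808 ± 11088.

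Reads of these genes can be shared with other genes, which makes levels uncertain at both ends of the order. Of the 50-base windows of the coding sequence, 100% in RPS3A, 99.7% in RPL7, 96.7% in RPL22, 82.1% in RPL26, 76.5% in RPS15A and 31.8% in RPL30 also occur in annotated transcripts of other genes. Among the most abundant members the share was 78.0% in RPS2 and 74.0% in RPL7A. RPL26, RPL22 and RPS15A also have 71.0%, 59.9% and 54.6% of their coding bases inside exons of another gene on the same strand, and RPL30 has 51.6% on the opposite strand. Over all 55 members the median share of such windows was 45.3%, 25 members had over 50%, and RPL38 had none. Reads counted on 206 pseudogenes named after members made up 3.70% to 4.77% of the members' and pseudogenes' reads together. For RPS28 its single named pseudogene took 60.6% to 79.2% of the pair's reads, so the level of RPS28 is uncertain.

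The comparison of the overexpression with the control libraries asks whether the messenger RNAs of the ribosome moved with VIM-AS1. Differences were small: the log2 fold change lay within 0.25 of 0 for 47 members and within 0.5 for 54. Without a term for the third libraries, 0 of 55 members passed limma's test (adjusted p from 0.445 upwards) and 0 had an unadjusted p under 0.05. Over all 20927 genes tested 0.0239% were called, so that test gave little for any gene. In each group the third library differed from the others, as described further on. With a term for the third libraries, limma called 1 member, RPS23, which fell, and 5 members had an unadjusted p under 0.05. The called share was 1.82% of members, against 19.4% of all genes tested and 7.94% called lower. Among the 3601 genes with a mean at least that of the lowest member, 41.8% were called with that term.

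The log2 fold change was positive for 20 members and negative for 35, with a median of -0.06, against -0.02 over all genes tested and 0.20 over the 3601 genes of similar or higher abundance. The large subunit had a median of -0.08 (8 of 33 positive) and the small subunit 0.01 (12 of 22 positive). The ratio of large to small subunit reads was 1.62, 1.52 and 1.64 with VIM-AS1 and 1.55, 1.595 and 1.75 without it, and the groups overlap (exact two-sided permutation p = 0.7, where 3 against 3 cannot go below 0.1). With the third-library term the standard error of a member's log2 fold change had a median of 0.14, and the 95% interval lay within 0.5 of 0 for 43 members and within 1 for 54. Missing the threshold does not show that a member is equal in both groups, and these intervals give the differences that the data leave possible. In bulk RNA, fewer cells expressing a gene and less RNA per cell cannot be told apart.

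**Figure D1:**
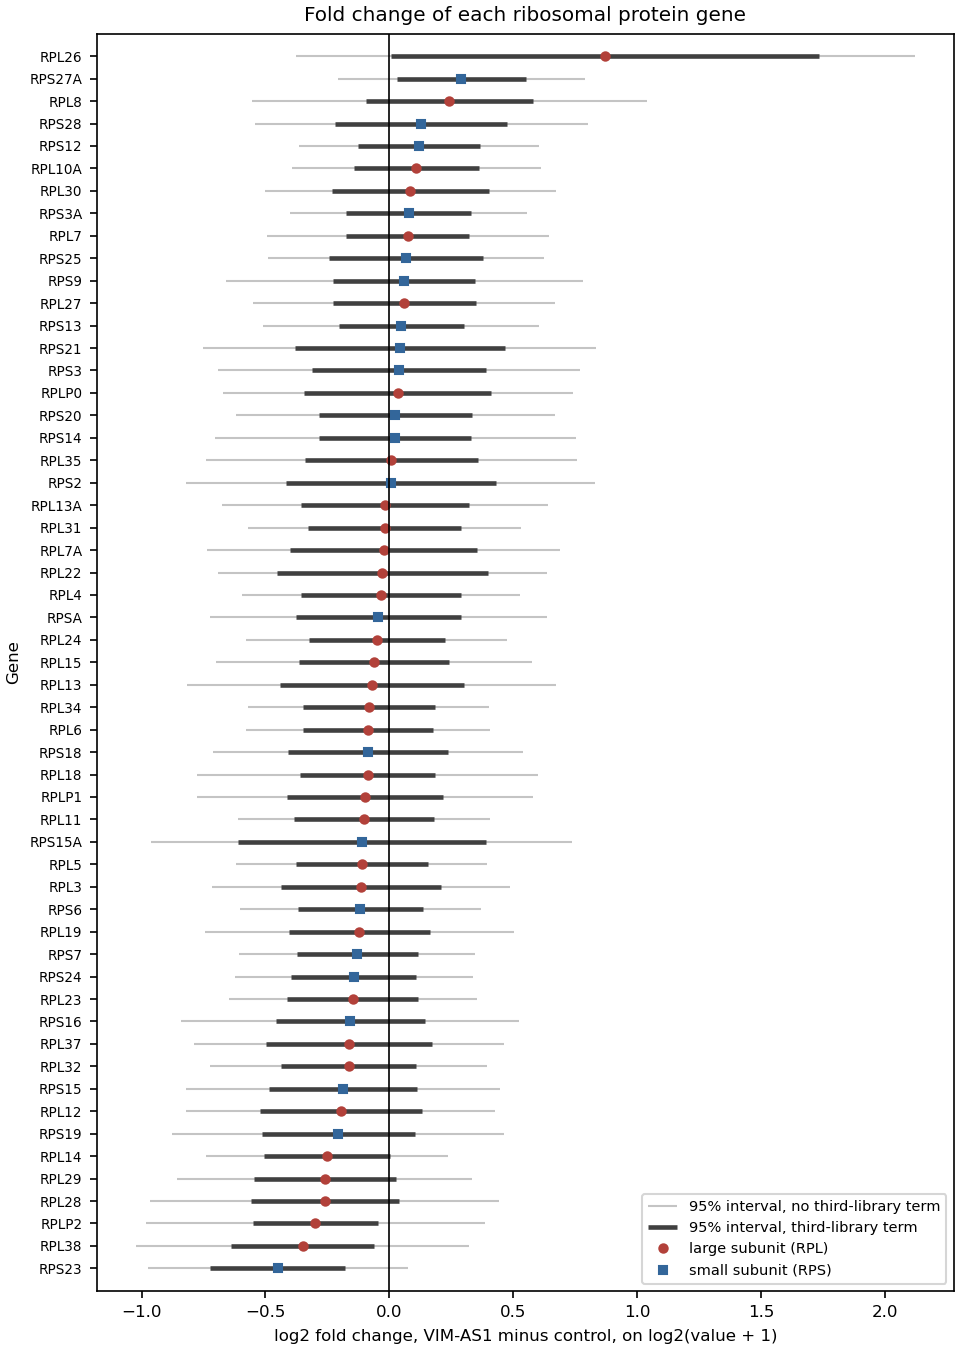
Log2 fold change of each of the 55 members (horizontal axis, overexpression minus control, on log2(value + 1)) with 95% limma intervals, thin without and thick with a term for the third libraries; circles are large and squares small subunit genes. The thin intervals all span 0, RPS23 at -0.45 is farthest to the left and RPL26 at 0.87, with the widest interval, farthest to the right.

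RPS23, a protein of the decoding centre on the small subunit, is the member that passed the test. Its gene lies at chr5:82273358-82278577 on the minus strand (GENCODE 29 on GRCh38). It had 8416, 5876 and 5376 normalized reads in overexpression libraries 1 to 3 and 9810, 8581 and 8060 in control libraries 1 to 3. It was lower in all 3 same-numbered pairs, although overexpression library 1 was above control library 3, so the groups overlap. The log2 fold change was -0.45 with a standard error of 0.13 and a limma adjusted p of 0.0185 with the third-library term. Without the term the standard error was 0.24 and the adjusted p 0.445. The call was lost without overexpression library 2 (log2 fold change -0.32, adjusted p = 0.212) and without overexpression library 3 or control library 3 (-0.38 in both, adjusted p = 0.3195 and 0.315). With the term, leaving out either of those takes the fold change from the first and second libraries only, and 1.34% and 1.13% of all genes tested were then called. It was also lost with a correction for GC content and length (-0.26, 0.126). Over all alternatives of the fit with the term, and the block described further on, its adjusted p ran from 0.000225 to 0.3195. Of the coding bases of RPS23, 54.1% lie opposite exons of the autophagy gene ATG10, and nothing in the labels says that the kit preserved strand. ATG10 had 145 to 190 normalized reads in all libraries, far below RPS23.

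The stalk of the large subunit, which recruits translation factors, is built of RPLP0, RPLP1 and RPLP2. RPLP2 had 17004, 18698 and 10604 normalized reads under VIM-AS1 and 21741, 22527 and 12802 in controls, lower in every same-numbered pair (log2 fold change -0.30, standard error 0.12, adjusted p = 0.0948 with the third-library term). Its partner RPLP1 had 48503, 52284 and 34279 against 54827, 56488 and 34492 normalized reads, a log2 difference of -0.10. RPLP0, the base of the stalk, had 88232, 101537 and 65228 against 84772, 101258 and 63595, a difference of 0.03. For each of the 3 stalk genes the third library was the lowest in both groups. None passed the test with or without the term, while RPLP2 passed with the replicate number as a block (adjusted p = 0.0102), with limma-voom (0.0200) and with DESeq2 (0.0113).

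RPL5 and RPL11 form a particle with 5S ribosomal RNA and can bind the p53 regulator MDM2, as can RPL23. RPL5 had 20159, 20229 and 23026 normalized reads under VIM-AS1 and 22849, 21970 and 23607 in controls (log2 fold change -0.11, 95% interval -0.38 to 0.15 with the term). RPL11 had 11549, 11106 and 13492 against 15410, 12148 and 11446 (-0.10). RPL23 had 14634, 14049 and 13445 against 18309, 14323 and 14341 (-0.15). For RPL11 and RPL23 the highest of the 6 values was control library 1, and each gene's groups overlapped.

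Of the other large subunit genes, RPL14 was one of 2 members whose groups did not overlap, which holds for 3.64% of members and 19.8% of all genes tested. It had 14183, 14086 and 14067 normalized reads with VIM-AS1 and 18403, 17085 and 15129 with the control vector, a log2 fold change of -0.25 (adjusted p = 0.162 with the term). RPL38, which contacts the expansion segments of ribosomal RNA and has been tied to the translation of Hox messenger RNAs in mice, had 5938, 5762 and 4067 against 10117, 6468 and 4408 (-0.35, adjusted p = 0.0855). Control library 1 stood well above all others for RPL38. RPL28 had 15682, 19443 and 9933 against 17022, 24170 and 12689 (-0.26), and RPL29 had 31546, 32016 and 23487 against 39117, 37576 and 27760 (-0.26). RPL3, which reaches towards the peptidyl transferase centre, had 50092, 51530 and 42021 against 54258, 58812 and 43187 (-0.12).

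On the higher side of the large subunit, RPL8 had 52011, 59173 and 35744 normalized reads under VIM-AS1 and 56423, 48823 and 24212 in controls (log2 fold change 0.24, adjusted p = 0.337 with the term). RPL10A had 12847, 14392 and 12530 against 13773, 12946 and 10356 (0.11). RPL13A, a reference gene, had 68633, 69973 and 50230 against 73291, 68860 and 49692 (-0.02, 95% interval -0.36 to 0.32 with the term). RPL22, whose level is uncertain for the shared sequence given above, had 1975, 2326 and 3018 against 3951, 1793 and 2077 (-0.03).

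RPL26, which binds near the exit of the nascent peptide and is known to bind the p53 messenger RNA, varied most. It had 652, 989 and 1330 normalized reads with VIM-AS1 and 1654, 308 and 274 with the control vector. Its highest and 2 lowest values are therefore all in the control group. The limma log2 fold change of 0.87 had a standard error of 0.57 without the third-library term and an adjusted p of 0.547. With the term the standard error was 0.41 and the adjusted p 0.157. On recovered reads the log2 fold change was smaller, 0.42 with edgeR and 0.41 with DESeq2 without the term. With the term these were 0.51 and 0.54. Without control library 1 the limma value with the term was 1.76 (adjusted p = 2.93e-08), so that library decides the call. Over the first and second libraries alone it was 0.17. In the fit without the term, leaving out overexpression library 3 or control library 3 gave 0.63 and 0.41. Over all alternatives with the term and the block the adjusted p reached 0.915. The 6 pseudogenes named after RPL26 held 19.1%, 14.9% and 13.3% of the reads of gene and pseudogenes under VIM-AS1 and 7.86%, 47.6% and 57.6% in controls. The share of pseudogene reads was thus highest where RPL26 was lowest. Since the reads of RPL26 are part of its denominator, few of them raise the share by construction. The pseudogenes' own recovered reads, not normalized, were 146, 176 and 200 under VIM-AS1 and 147, 229 and 471 in controls. The part of the pseudogenes in the difference was not tested.

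In the small subunit, RPS27A, which is made as a fusion with ubiquitin, was the other member whose groups did not overlap. It had 12970, 14130 and 17165 normalized reads with VIM-AS1 and 12735, 11593 and 11658 with the control vector, and the lowest overexpression library lay close above the highest control library. The log2 fold change was 0.29 (adjusted p = 0.117 with the term), and 80.4% of its coding windows occur in other genes. RPS12 had 11850, 12984 and 12385 against 12322, 12075 and 9992 (0.12). RPS28 had 3980, 6072 and 3213 against 3329, 5792 and 3083 (0.13).

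RPS6, the substrate of the S6 kinases downstream of mTOR, had 15350, 15001 and 14717 normalized reads with VIM-AS1 and 17830, 15898 and 15257 with the control vector (log2 fold change -0.12, 95% interval -0.37 to 0.14 with the term). RPS19, the gene most often mutated in Diamond-Blackfan anaemia, had 38709, 45865 and 28151 against 48607, 50021 and 31559 (-0.21). RPS14, lost in the 5q- syndrome, had 39934, 44147 and 27279 against 45546, 43055 and 23351 (0.02). RPS18, a reference gene, had 37082, 38785 and 32183 against 49419, 39347 and 28505 (-0.09). RPS3, at the entry of the messenger RNA channel, had 69113, 78696 and 51442 against 77914, 76165 and 43458 (0.04), and RPSA, also known as the laminin receptor, had 54743, 64704 and 41438 against 61004, 64892 and 40714 (-0.04). None of these 6 genes passed the test in either fit, the groups overlapped for each, and for each the third library was the lowest in both groups.

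Differences between libraries of a group were larger than the median difference between the groups. Against the mean of the first and second library, the third was lower for 42 of 55 members in the overexpression group (median log2 difference -0.28) and for 51 of 55 in the control group (-0.53). The 10 members highest in coding GC content (57.6% to 63.0%) had median differences of -0.66 and -0.68 in the overexpression and control groups. The 10 lowest in GC (42.7% to 45.5%) had 0.17 and -0.12. Across the 55 members the Spearman correlation of the third-library difference with coding GC content was -0.83 in the overexpression and -0.53 in the control group. Across all genes tested with a known GC content it was -0.58 and -0.59, using the whole transcript. Members are not independent points, since they share the same libraries. Whether GC content, sequencing or another property of the third libraries set this was not tested.

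**Figure D2:**
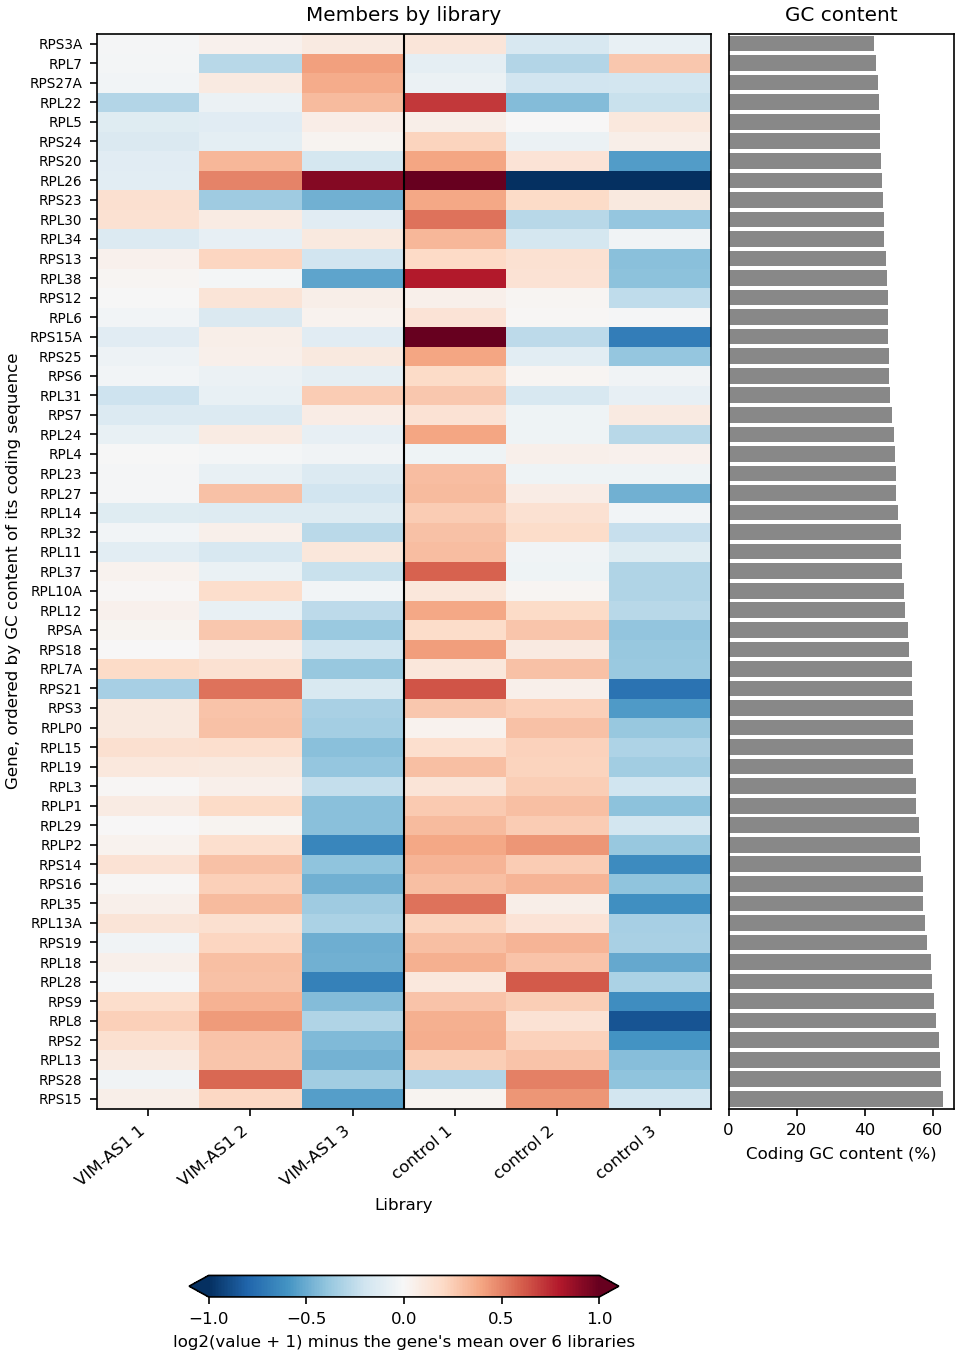
The 55 members (rows, ordered by the GC content of the coding sequence, in percent on the right) in the 6 libraries (columns); colour is log2(value + 1) minus the gene's mean over the 6 libraries, with values past 1 in either direction shown at the end of the scale. The third library of each group is blue for most GC-rich members at the bottom, control library 1 is red for RPL26, RPS15A, RPL38 and RPL22, and only the rows of RPL14 and RPS27A separate the 2 groups.

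**Figure D3:**
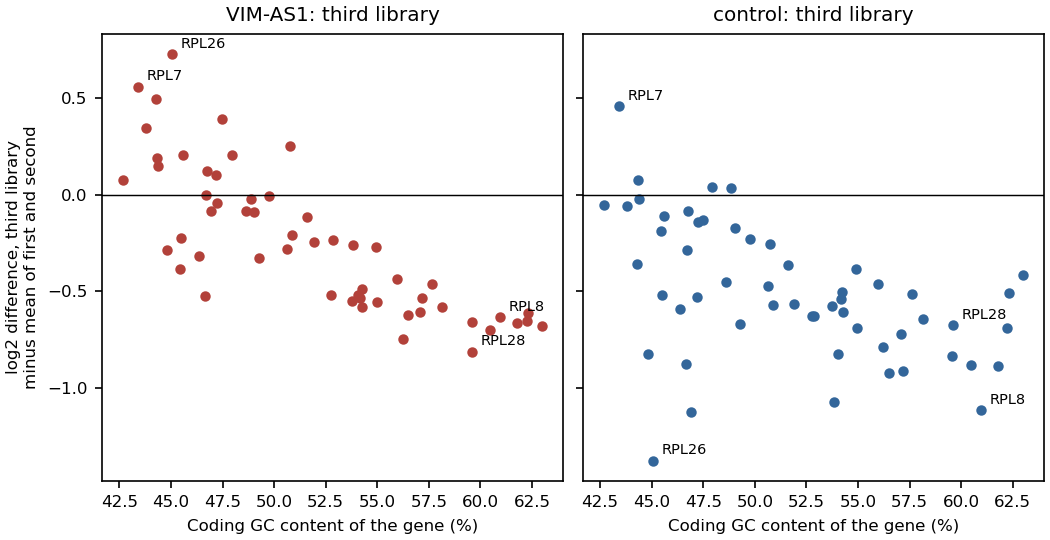
Log2 difference of the third library from the mean of the first and second (vertical axis) against coding GC content in percent (horizontal axis), 1 point per member, for the overexpression (left) and the control group (right). The points fall from left to right, more tightly on the left panel, and RPL26 lies at 0.73 on the left and -1.38 on the right panel.

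The first and second libraries differed in another way. Members were higher in control library 1 than in control library 2 by a median of 0.13 on the log2 scale. The difference was 0.64 for RPL37, 0.65 for RPL38, 0.82 for RPL30, 1.14 for RPL22, 1.39 for RPS15A and 2.42 for RPL26. It was negative for 14 of 55 members, among them RPS28 (-0.80), RPL28 (-0.51) and RPS15 (-0.42). In the overexpression group the first library minus the second had a median of -0.12, with 41 of 55 members negative. RPS15A had 4699, 5302 and 4708 normalized reads under VIM-AS1 and 11118, 4234 and 3143 in controls. The direction of the whole set followed the pairs of libraries: the median log2 ratio of same-numbered libraries was -0.22 for number 1 (7 of 55 positive), -0.0042 for number 2 (27) and 0.05 for number 3 (33). Over the first and second libraries alone 0 members were called, where 1.61% of all genes tested were called. The median was then -0.15, with 46 of 55 members negative. In the fit without the third-library term, the median was 0.05 without control library 1, with 35 positive, and 0.04 without overexpression library 3. Without control library 3 it was -0.23, with 5 positive. With the term it was -0.03 without control library 1, with 27 positive, and -0.15 without either library numbered 3. It was then -0.01 and -0.06 without overexpression libraries 1 and 2, and -0.09 without control library 2.

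Over 13175 genes the deviations of same-numbered libraries correlated at 0.32, 0.72 and 0.84 for numbers 1 to 3. The replicate number was therefore also fitted as a block. The pairing of number 1 is weak, since overexpression library 1 correlated more with control library 2 (0.42). Overexpression library 2 correlated with control library 1 at 0.33. A gene's deviations within a group cancel out, so a shift shared by the third libraries alone makes the first and second libraries correlate. The value for number 2 is therefore not separate evidence of pairing. Among the members the first library minus the second had medians of opposite sign, -0.12 with VIM-AS1 and 0.13 in controls. The block calls below rest on that uncertain pairing. That limma fit called 7 members, 6 lower (RPS23, RPL38, RPLP2, RPL28, RPL29 and RPL14) and 1 higher (RPS27A), or 12.7% of members against 26.6% of all genes tested. Their adjusted p-values ran from 0.000225 for RPS23 and 0.00835 for RPL38 to 0.0446 for RPL29.

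The sign of many small differences depended on how the libraries were scaled. TMM factors left the median of the members at -0.06 with 20 of 55 positive, the same as the deposited scaling. Upper-quartile factors gave -0.11 with 13 positive, and scaling to all reads gave -0.12 with 10 positive. Scaling to the reads outside mitochondrially encoded genes gave -0.20, with 3 of 55 members positive, and moved the median of all genes tested by -0.13. Relative to the median of all genes, the members lay at -0.04 under the deposited and TMM scaling, -0.04 under the upper-quartile and all-read scaling, and -0.05 without the mitochondrially encoded genes. A single factor per library shifts all genes alike, so this distance is nearly fixed by construction. A correction of each library for its trends with GC content and transcript length turned the median to 0.11, with 46 members positive, and that of all genes to 0.07, which put the members 0.04 above all genes.

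**Figure D4:**
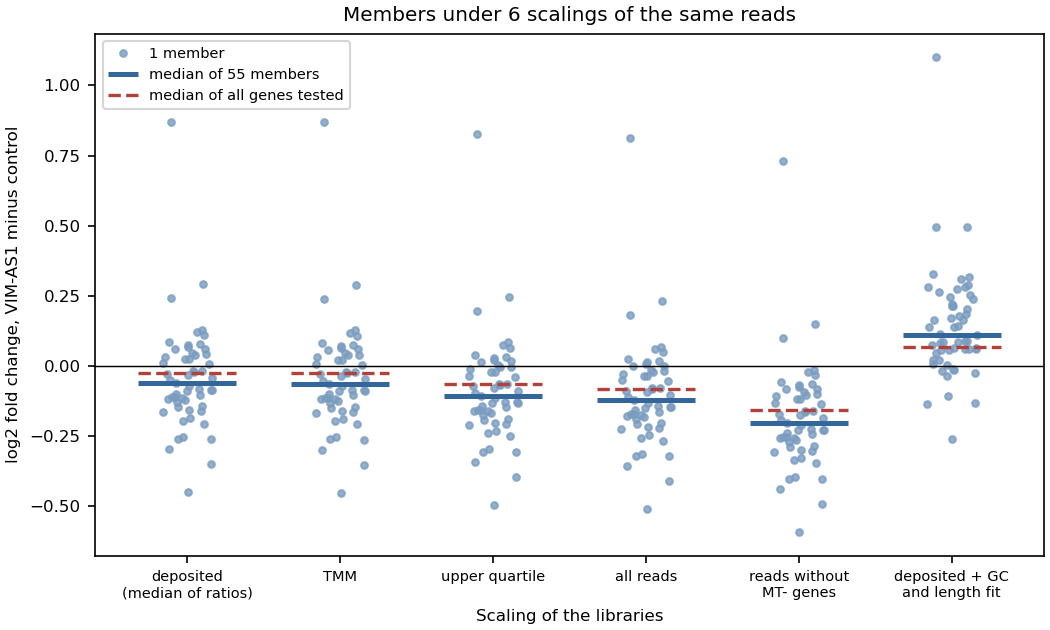
Log2 fold changes of the 55 members (points, overexpression minus control) under 6 scalings of the same reads; solid bars are the members' medians and dashed bars the medians of all 20927 genes tested. The members' median runs from -0.20 with scaling to reads without mitochondrially encoded (MT-) genes to 0.11 with the GC and length correction, and the dashed bar moves with it.

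The number of calls also differed between scalings. With the third-library term, 0 members were called higher and 1 lower under the deposited, TMM and upper-quartile scaling, where 19.4%, 19.3% and 17.6% of all genes were called. Scaling to all reads called 6 of 55 members lower, namely RPS23, RPLP2, RPL28, RPL29, RPL14 and RPS19. There 15.6% of all genes were called in either direction, and 53.3% of these calls were higher. Without the mitochondrially encoded genes 14 of 55 were called lower, among them RPL3, RPL5 and RPL38. There 17.3% of all genes were called in either direction, and 36.9% of these calls were higher. In both settings a larger share of members than of all genes was called lower. With the GC and length correction 0 were called lower and 2 higher, RPL8 (0.49) and RPS27A (0.50), beside 22.4% of all genes. Over all genes, the share of calls that were higher was 59.1% under the deposited scaling, 36.9% without the mitochondrially encoded genes and 70.6% with the correction. RPLP0, a reference gene, and RPS14 changed sign with the scaling, as RPLP0 was at 0.03 under the deposited and at -0.11 under the mitochondria-free scaling.

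The mitochondrially encoded genes took 7.06%, 6.86% and 5.57% of all reads with VIM-AS1 and 8.73%, 14.3% and 11.8% without it, with no overlap (exact permutation p = 0.1, the smallest that 3 against 3 allows). The members took 8.96%, 9.09% and 8.55% of all reads with VIM-AS1 and 11.0%, 9.18% and 8.69% with the control vector. The group means were 8.87% ± 0.28 and 9.63% ± 1.23 (SD, n = 3), the ranges overlapped and the exact two-sided permutation p was 0.4. The difference of -0.763 percentage points was -0.069 without control library 1 and -1.23 without control library 3. Of the reads outside mitochondrially encoded genes, the members took 9.64%, 9.76% and 9.05% against 12.1%, 10.7% and 9.86%. On that base the groups did not overlap and the means were 9.49% ± 0.38 and 10.9% ± 1.12, with the exact p at its minimum of 0.1. The counting error of a library's share was small, for example a 95% Wilson interval of 8.95% to 8.97% for overexpression library 1, so the spread between libraries sets the precision. Such an interval holds counting error alone, because reads lacking molecular identifiers may be copies of 1 molecule.

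**Figure D5:**
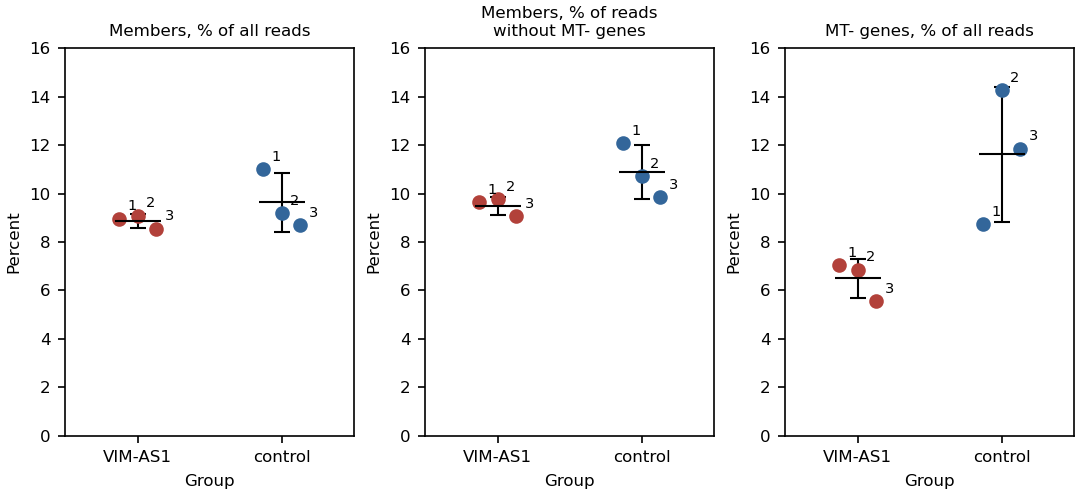
Percent of all reads on the 55 members (left), percent of reads outside mitochondrially encoded (MT-) genes on the members (middle) and percent of all reads on MT- genes (right); points are libraries with their replicate number, and bars are the mean and SD of 3 libraries. The groups overlap on the left and do not overlap in the other panels.

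The other genes of the pathway were described with the third-library term, since without it 0 members of any list below passed limma's test. Counts of calls are to be read beside the 19.4% of all genes and the 41.8% of the abundant genes called in the same fit. Without overexpression library 3 or control library 3, a fit in which few genes pass at all (1.34% and 1.13%), nearly all calls below were lost; for those settings the median over the first and second libraries is given. The 25 cytosolic ribosomal protein genes outside the set had a median log2 fold change of 0.03. Scaling to all reads turned that median to -0.03, upper-quartile factors turned it to -0.02, and scaling without mitochondrially encoded genes to -0.12. The GC and length correction raised it to 0.23, with 24 of 25 positive against 14 under the deposited scaling. Of 7 tested ribosomal protein paralogs 3 rose: RPL39L (0.63, adjusted p = 0.00291), RPL26L1 (0.58, 0.00057) and RPL7L1 (0.35, 0.0172). The median of the 7 was 0.26, and 0.12 over the first and second libraries, where 0 were called. RPL26L1, a close copy of RPL26, had 941, 933 and 1023 normalized reads under VIM-AS1 and 642, 608 and 690 in controls. Of 14 other TOP messenger RNAs, EEF1B2, an exchange factor of elongation factor 1, rose (0.47), and EIF3E and NAP1L1 fell by 0.38 and 0.33 on the log2 scale. Of the 14, 0 were called lower with the GC and length correction or without overexpression library 2, and 0 of them were called without either of the libraries numbered 3.

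Of 8 genes that control TOP messenger RNAs 5 rose and 0 fell; with the replicate block 5 were called higher and 1 lower. MTOR, the kinase itself, had 1491, 1450 and 1633 normalized reads with VIM-AS1 and 912, 1036 and 1028 with the control vector (log2 fold change 0.62, adjusted p = 0.000282). RPTOR, a subunit of its complex, rose by 0.59 and RPS6KB2, an S6 kinase, by 0.58. LARP1, which binds the TOP tract, rose by 0.46 with 5897, 5750 and 5296 against 3944, 4734 and 3698 normalized reads, and EIF4EBP2, a translation repressor, by 0.47; these 2 are named because their list is short, after their values were seen. Under each of the 5 scalings 5 of the 8 were called higher. The median of the 8 genes was 0.46 under the deposited and TMM scaling. It was 0.42 with upper-quartile factors and 0.40 with scaling to all reads. Without the mitochondrially encoded genes it was 0.32, with 6 of 8 positive. Over the first and second libraries, under the deposited scaling, the median was 0.43, with 7 of 8 positive and 0 called. Messenger RNA levels say nothing of the activity of these proteins.

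Of 6 chaperones of ribosomal proteins 3 rose: GRWD1 (0.88), TSR2 (0.47), which escorts RPS26, and PDCD2 (0.32), which escorts RPS2. Scaling to all reads, with or without the mitochondrially encoded genes, left 1 call in that list. Their median was 0.31, and 0.27 over the first and second libraries. Among factors bound at ribosomal protein promoters GABPB1 rose by 0.62 and SP1 fell by 0.35 on the log2 scale, of 5 tested. Of the 5, 0 were higher under both library size scalings and without any 1 overexpression library, control library 1 or control library 3, and 0 were lower without overexpression library 2 or 3 or control library 2 or 3. Of the 78 mitochondrial ribosomal protein genes, which build the separate ribosome inside mitochondria, 27 rose and 1, MRPL41, fell by 0.52 on the log2 scale, a called share of 35.9%. Their median log2 fold change was 0.23, and MRPL12 (1.05), MRPS7 (0.78) and MRPL46 (0.77) were the largest. Among other reference genes YWHAZ (0.49) and PGK1 (0.49) rose. Scaling to the reads without mitochondrially encoded genes left 12 mitochondrial ribosomal protein genes higher and 3 lower, and scaling to all reads left 15 higher, while the GC and length correction gave 46. Without overexpression library 2 or control library 2, 13 and 17 were higher. Over the first and second libraries the median of the 78 genes was 0.16, with 59 positive and, without overexpression library 3 or control library 3, 0 called. Of the markers of other cell types DCN (-1.30), TP63 (-1.79) and COL1A1 (-0.46) fell and VWF rose, with 53.2 to 97.0 normalized reads under VIM-AS1 and 22.1 to 48.9 in controls.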

How the data were processed

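Total RNA of 6 libraries, 3 per group, was sequenced. The tools named are fastp, HISAT2 and featureCounts and the build is hg38, per the submitters' processing notes. Their versions, the annotation and the strand setting are not given in the sources used here. Each deposited value is a signal, a gene's count after division by the library's own factor (0.819 to 1.27). All 25969 values of each library (100%) gave whole reads within 0.01 read, and the factors equalled median-of-ratios size factors computed from the recovered reads. All identifiers were matched to GENCODE 29 names.

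The members, the gene lists and the term for the third library of each group were chosen with earlier results of these data known, and no count of a list is independent support. limma 3.58.1 (R 4.3.3, intensity trend, empirical Bayes) was fitted to the 20927 genes whose mean was at least 1, as log2(value + 1), without and with that term; tests were two-sided with a threshold of 0.05 after Benjamini-Hochberg adjustment over all genes tested. Fold changes on this scale understate the change of genes with few reads. Named members are those past the threshold, the 6 largest log2 fold changes in each direction, and 16 members with known roles; of other lists, up to 3 genes past the threshold in each direction. Alternatives were TMM, upper-quartile and library size scaling, a GC content and length correction (splines with 5 degrees of freedom), a pseudocount of 0.1, other filters, each library left out, and, on recovered reads, limma-voom, edgeR 4.0.16 and DESeq2 1.42.0. A fit without the third library of each group was added after seeing the data.

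Same-numbered libraries were checked for pairing: over 13175 genes their deviations from the group means correlated at 0.32, 0.72 and 0.84 for numbers 1 to 3, although overexpression library 1 correlated more with control library 2 (0.42). A shift shared by the third libraries alone makes the first and second libraries correlate, so these values do not settle the pairing. The pairing comes from the labels' replicate numbers and these values, and the block fit stands beside the results. Shared sequence was counted as 50-base coding windows found in other genes' GENCODE 29 transcripts. Fits were tested on simulated data. Results for some listed genes outside the set are not reported here.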

Additional observations from a re-analysis of the deposited data

How the results depend on the processing

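The member calls without the third-library term stayed at 0 in each direction except with the replicate block (1 higher, 6 lower) and the block with the GC and length correction (9 higher, 1 lower). The block fits called 26.6% and, with the correction, 28.7% of all genes tested. With the term the main counts were 0 higher and 1 lower. Higher calls numbered 2 with the GC and length correction, 1 with DESeq2, and 0 to 5 with 1 library left out. Lower calls numbered 6 with library size scaling, 14 without mitochondrially encoded genes, 0 with the GC and length correction, 2 with edgeR, 5 with limma-voom, 4 with DESeq2, and 0 to 4 with 1 library left out; the cause was not tested. Of all genes tested, edgeR with the term called 20.1%, limma-voom 20.03% and DESeq2 16.7%, in either direction. When 1 library was left out, limma with the term called from 1.13% (without control library 3) to 20.7% (without control library 1) of all genes. With 1 library left out, the members' median log2 fold change ran from -0.23 to 0.05 in the fit without the term. In the fit with the term it ran from -0.15 to -0.01. The difference in the share of reads moved from -0.763 to -1.74 percentage points relative to reads neither mitochondrially encoded nor of the members, and ran from -1.23 to -0.069 with 1 library left out. Without the third library of each group, a setting chosen after seeing the data, 0 members were called and the median was -0.15. Only 1.61% of all genes tested were called in that setting.

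Of 468 values of the 26 named members under alternatives, 392 kept direction and side of the threshold, 35 passed it anew, 4 no longer passed it, and 37, in 17 genes, changed sign. With the GC and length correction the log2 fold change turned for RPLP2 to 0.0057, RPL5 to 0.046, RPL11 to 0.061, RPL22 to 0.075, RPL23 to 0.085, RPL13A to 0.086, RPLP1 to 0.11, RPS6 to 0.022, RPS18 to 0.11, RPS19 to 0.058 and RPSA to 0.060. Without mitochondrially encoded genes it turned for RPL10A to -0.033, RPS12 to -0.023, RPS28 to -0.014, RPLP0 to -0.11, RPS14 to -0.12 and RPS3 to -0.10. With library size scaling it turned for RPLP0 to -0.028, RPS14 to -0.037 and RPS3 to -0.021. With upper-quartile factors it turned for RPLP0 to -0.012, RPS14 to -0.022 and RPS3 to -0.0061. With 1 library left out in the fit with the term, where leaving out either library numbered 3 gives the fold change of the first and second libraries, the values ranged from -0.27 to 0.044 for RPL11, from -0.040 to 0.012 for RPL13A, from -0.31 to 0.38 for RPL22, from -0.040 to 0.11 for RPLP0, from -0.077 to 0.094 for RPS14, from -0.22 to 0.045 for RPS18, from -0.11 to 0.35 for RPS28, from -0.063 to 0.12 for RPS3 and from -0.10 to 0.034 for RPSA. The replicate block changed no sign among these, since it leaves the fold changes as they are; with it, further calls are those given above. Depth was not limiting for most members, as the least covered one had at least 252 reads in every library.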
